A study of Mus musculus with 6 samples.

Results

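Cytosolic ribosomal protein genes encode the proteins of the ribosomes that translate messenger RNA in the cytoplasm. Each ribosome joins a small subunit, which reads the messenger RNA, to a large subunit, which forms the peptide bonds, and each subunit is built from ribosomal RNA and many proteins in fixed proportion. Proteins of the large subunit have gene symbols starting with Rpl and those of the small subunit symbols starting with Rps. In mammals most of their mRNAs begin with an uninterrupted stretch of pyrimidines, the terminal oligopyrimidine tract, through which mTOR signalling sets the translation of the whole class, and they are among the most abundant mRNAs of growing cells.

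Members were the probe sets of the Affymetrix MOE430 array whose only listed gene symbol begins with Rpl or Rps followed by a digit, without the kinases named Rps6k and without pseudogene symbols. The rule found 102 of 45037 probe sets and 47 of 18193 genes. Of these genes, 20 encode large-subunit proteins (40 probe sets) and 20 encode small-subunit proteins (51 probe sets). Another 6 are paralogs of such genes (Rps4l, Rps27l, Rpl3l, Rpl7l1, Rpl22l1 and Rpl39l, 10 probe sets), and the last, Rps19bp1, encodes a protein that binds the product of Rps19 and is no ribosomal protein. A further 109 probe sets with ribosomal protein names listed several genes each and were no members.

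Bladder cells came from male mice of strain FVB/N, 2 days after birth, that carried a pair of transgenes. In one the SMGA promoter (smooth muscle gamma actin) drives EGFP, in the other the SMAA promoter (smooth muscle alpha actin) drives EYFP. Sorted cells with both reporters (EGFP+EYFP+, 3 arrays) were set against sorted cells with EGFP alone (EGFP+EYFP-, 3 arrays). Both are labelled as cells of the detrusor, the bladder's muscle coat. All mice carried both transgenes, so the groups differ in reporter state and not in genotype, and a reporter shows that a promoter is active, not which cell type carries it. Samples were not pooled and RNA was amplified in 2 rounds. Whether the arrays of a group stand for different animals is not stated, so p-values measure only the spread between these samples, and that spread may be technical.

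Markers of several cell types differed between the 2 populations. Fewer cells of a type and less RNA per cell cannot be told apart in such samples. A marker passed where its adjusted p was under 0.05 in limma, with each gene read from its brightest probe set. A marker fell where it passed and was lower in EGFP+EYFP+ cells. Over all 13464 genes tested in this way, 4.38% fell and 1.98% passed as higher. Of 10 smooth muscle markers 8 fell in EGFP+EYFP+ cells, with a summed signal of 105551 to 147429.6 in EGFP+EYFP+ arrays against 289966.5 to 373191 in EGFP+EYFP- arrays, so the markers of the labelled muscle layer were present in both. Of 11 leukocyte markers 10 fell (summed signal 8783 to 17406 in EGFP+EYFP+ and 75786 to 104083.5 in EGFP+EYFP- arrays), of 8 endothelial markers 4 fell (6343 to 10176 and 33765 to 43098), and of 11 urothelial markers 7 fell (4667 to 7929 and 20482 to 36398). Of 4 tested markers of Schwann cells and nerve 2 fell (890.1 to 1767 and 6853 to 7781), and none of 6 fibroblast markers passed (262916 to 365681.5 and 266692 to 310690.4). The part of these marker differences in the ribosomal protein values was not tested.

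Short stretches around the annotated starts of 6 genes are shown because values of these genes carry the results, either through 1 array (Rps10, Rps18, Rps15, Rpl41) or through disagreement between probe sets of a gene (Rpl35, Rps9). The sequences are those of RefSeq for GRCm38.p6, written 5′ to 3′ on the strand of the gene, with the 30 bases before the annotated start and the 30 bases from it onward, and capitals mark runs of 8 or more C or T. Rps10 lies at chr17:27635215-27635274 (minus strand), Rps18 at chr17:33955636-33955695 (minus), Rpl35 at chr2:39005102-39005161 (minus), Rps9 at chr7:3704011-3704070 (plus), Rpl41 at chr10:128549139-128549198 (minus) and Rps15 at chr10:80292401-80292460 (plus).
Rps10: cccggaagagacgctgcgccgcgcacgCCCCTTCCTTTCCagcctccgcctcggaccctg
Rps18: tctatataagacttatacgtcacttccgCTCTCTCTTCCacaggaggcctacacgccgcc
Rpl35: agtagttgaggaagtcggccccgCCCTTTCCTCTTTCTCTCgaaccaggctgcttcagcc
Rps9: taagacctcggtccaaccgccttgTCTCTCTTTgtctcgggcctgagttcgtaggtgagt
Rpl41: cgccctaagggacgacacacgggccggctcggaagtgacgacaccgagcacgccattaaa
Rps15: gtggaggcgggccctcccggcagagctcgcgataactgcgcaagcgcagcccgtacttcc

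A RefSeq promoter was matched for 41 of the 47 genes. A run of 8 or more C or T within 30 bases of the annotated start, on the gene's strand, was present in 23 of the 41 (56.1%). It was present in 20 of the 35 matched genes of the large and small subunit themselves (57.1%), against 25.8% of all 27025 genes with a promoter. A gene with several listed starts counted where any of them had the run. The letters CCGGAAG or their reverse complement CTTCCGG are a form of the motif bound by ETS transcription factors. Counted likewise, they stood anywhere from 250 bases before to 50 after the start in 19 of the 41 (46.3%), against 9.93% of the 27025 genes. The letters CTTCC of that complement are all C or T and can lie within a run. Rpl41 and Rps15 had no such run in this window, although the tract is known for the class, and annotated starts can differ from those used in a tissue.

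In the bladder cells, ribosomal protein probe sets were slightly brighter in EGFP+EYFP+ than in EGFP+EYFP- cells, and no single one passed the test. The median difference over the 95 probe sets that could be tested was 0.22 on the log2 scale, 1.17-fold, against 0.02 over all 27022 probe sets tested, and over all 102 members it was also 0.22, against 0.04 over all probe sets. Of the 95, 76 (80%) had the higher mean in EGFP+EYFP+ cells, as did 52.1% of all tested probe sets. With quantile normalization the member median was smaller, 0.14 against 0.05 over all tested probe sets, with 70 of 95 higher. With median centring 79 were higher. Differences here are EGFP+EYFP+ minus EGFP+EYFP- means of log2(signal + 25.042), a scale that understates differences of dim probe sets. A probe set was tested where its mean on that scale was above 6.82, and 7 members were too dim (the only probe sets of Rpl3l and Rps16, 3 of Rps18 and 1 each of Rps3 and Rps4x), which left 45 genes.

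None of the 95 passed an adjusted p of 0.05 in limma, where 3.42% of all tested probe sets passed (1.01% higher and 2.42% lower in EGFP+EYFP+ cells). At an unadjusted p under 0.05 there were 10 members, 8 higher (5.35% of all tested) and 2 lower (8.28% of all tested). With 1 probe set per gene, the brightest, none of 45 member genes passed, against 6.37% of 13464 genes (1.98% higher and 4.38% lower), and 39 of the 45 were higher, with a median of 0.19 against 0.02 over all genes. The lower and upper quartiles of member differences were 0.10 and 0.34, against -0.33 and 0.33 over all tested probe sets. The 95% interval of the difference stayed within 1 log2 unit on either side for 68 of the 95 members and reached 1 unit for 27. The median half-width of the interval was 0.47, wider than the median difference. The 109 probe sets with several symbols had a like median, 0.23 over 102 tested, of which 91 were higher and 0 passed in limma. Of the 102, 17 had an unadjusted p under 0.05, as did 13.6% of all tested probe sets.

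These probe sets sat near the top of the arrays' range. Among the 1000 probe sets of highest mean signal 44 were members, and among the highest 100 there were 13. A probe set's signal depends on its own probes, so such a rank places it on the range of the array and does not order genes by mRNA amount. The 44 bright members varied little, from -0.07 to 0.64, with 42 of 44 higher in EGFP+EYFP+ cells and a median of 0.23, against a median of 0.06 over 893 others of the brightest 1000, a count that leaves out both the members and the ribosomal protein probe sets with several symbols. In that range 37 probe sets passed, and the smallest difference among them was 0.58 in size. The 51 dimmer tested members ran from -1.23 to 0.79, with 34 of 51 higher and a median of 0.20.

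**Figure D1:**
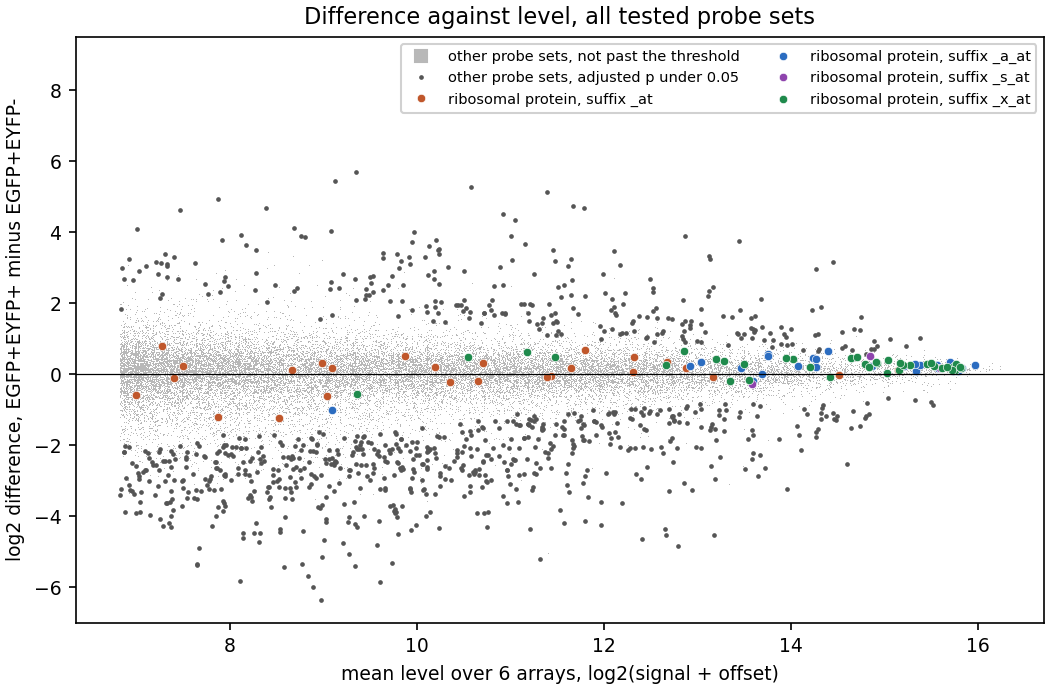
Difference in log2(signal + 25.042) between EGFP+EYFP+ and EGFP+EYFP- cells (y axis) against the mean of that value over 6 arrays (x axis) for all 27022 tested probe sets, with the 95 ribosomal protein probe sets coloured by the ending of their name and probe sets past an adjusted p of 0.05 in dark grey. The bright members gather just above 0, the members furthest below it are dim, and no member is among the probe sets that passed.

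The brightest member on average was a probe set of Rps3a1, a small-subunit protein, which ranked 17 of all probe sets. Its signal was 75309, 77869 and 58556 in the EGFP+EYFP+ arrays, against 58648, 60861 and 56378 in the EGFP+EYFP- arrays. EGFP+EYFP+ arrays 1 and 2 lay above all EGFP+EYFP- arrays and array 3 lay among them, and the difference of 0.26 (SE 0.13) had a limma adjusted p of 0.474. The next 4 by level were also of the small subunit. Rps7, whose product also binds the p53 regulator Mdm2, averaged 62041 ± 7843 in EGFP+EYFP+ and 54882 ± 6051 in EGFP+EYFP- arrays (SD, n = 3 each). The probe sets of Rps20 (1456436_x_at), Rps28 (1451101_a_at) and Rps29 (1438859_x_at) averaged 61360 ± 5995, 61819 ± 11633 and 61490.5 ± 5862 in EGFP+EYFP+ arrays, against 54629 ± 2987, 54374 ± 4981 and 52997 ± 1496 in EGFP+EYFP- arrays (SD, n = 3 each). All 5 were higher on average in EGFP+EYFP+ cells by 0.17 to 0.26 log2 units, and the groups were apart for those of Rps20 and Rps29.

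The slight elevation was carried by 2 of the 3 EGFP+EYFP+ arrays. The median signal of the 95 probe sets was 23309.7, 22434 and 15348 in EGFP+EYFP+ arrays 1, 2 and 3, against 15190.3, 17982 and 16203 in EGFP+EYFP- arrays 1, 2 and 3. Relative to each probe set's mean over the 6 arrays, the median deviation was 0.27, 0.22 and -0.19 in the EGFP+EYFP+ arrays, against -0.13, -0.04 and -0.17 in the EGFP+EYFP- arrays. EGFP+EYFP+ array 3 therefore lay at the level of the EGFP+EYFP- arrays for the typical member, below all of them in this measure. Part of the deviations was shared by the 893 others of the brightest 1000 probe sets. Their median deviation was 0.13, 0.03 and -0.06 in the EGFP+EYFP+ arrays, against 0.03, 0.03 and -0.14 in the EGFP+EYFP- arrays. Array by array, 45, 29 and 8 members had their highest value in EGFP+EYFP+ arrays 1, 2 and 3, against 4, 6 and 3 in EGFP+EYFP- arrays 1, 2 and 3. EGFP+EYFP+ array 2 held the highest value for 28.1% of all tested probe sets and the other arrays for 14.1% to 14.8%.

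**Figure D2:**
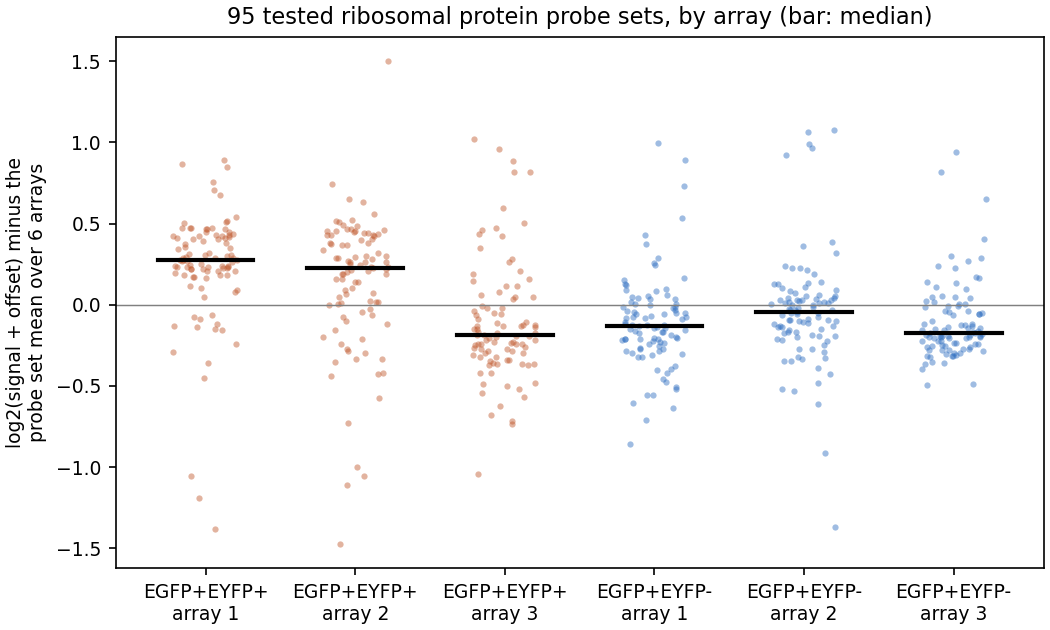
Each point is 1 of the 95 tested ribosomal protein probe sets on 1 array, as log2(signal + 25.042) minus that probe set's mean over the 6 arrays (y axis), for the 3 EGFP+EYFP+ arrays and then the 3 EGFP+EYFP- arrays, with bars at the medians. EGFP+EYFP+ arrays 1 and 2 are centred above 0 (0.27 and 0.22), while EGFP+EYFP+ array 3 (-0.19) is centred below 0 with the EGFP+EYFP- arrays.

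Summed over the 102 members, ribosomal protein signal made up 2.67%, 2.66% and 2.05% of all signal in EGFP+EYFP+ arrays 1, 2 and 3, against 2.08%, 2.22% and 2.08% in the EGFP+EYFP- arrays. The group means of 2.46% ± 0.36 and 2.13% ± 0.08 (SD, n = 3 each) differed by less than the SD of the EGFP+EYFP+ arrays. The members are only a part of the ribosomal protein signal. With the 109 probe sets of several symbols added, the share was 6.19%, 6.22% and 4.8% in EGFP+EYFP+ arrays, against 4.95%, 5.18% and 4.77% in EGFP+EYFP- arrays. In 64 of the 95 tested members EGFP+EYFP+ arrays 1 and 2 both lay above all EGFP+EYFP- arrays (19.3% of all tested probe sets), and in 51 of these array 3 did not (10.8% of all tested). The same pattern with array 2 as the exception held for 6 members (4.19% of all tested) and with array 1 as the exception for 0 (3.85%). Array 3 was the lowest of the EGFP+EYFP+ group in 66 of the 95 (42.3% of all tested). The groups were fully apart for 13 members higher in EGFP+EYFP+ cells (8.57% of all tested) and 5 lower (10.1% of all tested). The spread within a group, as the median SD of log2 values, was 0.327 over EGFP+EYFP+ and 0.163 over EGFP+EYFP- arrays for members, against 0.429 and 0.339 for all tested probe sets.

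Array 3 of the EGFP+EYFP+ group also differed in a control of RNA length. The Actb control probe sets gave a 3′ over 5′ signal ratio of 4.66, 2.78 and 8.02 in EGFP+EYFP+ arrays 1, 2 and 3, against 5.97, 5.46 and 3.23 in the EGFP+EYFP- arrays. The 3′ Actb control itself was 41487, 61955 and 18952 in the EGFP+EYFP+ arrays, against 44894, 44658 and 43544 in the EGFP+EYFP- arrays. The Gapdh ratio was 17.2, 17.2 and 23.9 in EGFP+EYFP+ arrays, against 15.2, 11.8 and 20.6 in EGFP+EYFP- arrays. EGFP+EYFP+ array 3 had the highest of the 6 ratios for each gene and the lowest Actb control signal. The log2 Actb ratio was 2.23 ± 0.76 in EGFP+EYFP+ and 2.24 ± 0.48 in EGFP+EYFP- arrays (SD, n = 3 each, exact two-sided permutation p = 1). The log2 Gapdh ratio was 4.26 ± 0.27 in EGFP+EYFP+ and 3.95 ± 0.40 in EGFP+EYFP- arrays (SD, n = 3 each, exact two-sided permutation p = 0.4). With 3 arrays against 3 this exact test cannot go below 0.1. The part of RNA length in the low ribosomal protein values of this array was not tested.

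Without EGFP+EYFP+ array 3 the median difference of members was 0.38, with 77 of 95 higher, and 7 probe sets passed, all higher in EGFP+EYFP+ cells (1.25% of all tested probe sets passed in that direction). They belong to Rpl41, a minute basic protein of the large subunit, and to Rps10, Rps15, Rps18 and Rps29 of the small subunit. Other tested probe sets of each gene were also higher but did not pass in that fit. Their limma adjusted p was 0.0504 to 0.647 for Rps10 and 0.134 for Rps15. It was 0.0772 and 0.105 for Rps18, 0.191 for Rps29, and 0.367 and 0.53 for Rpl41. The passing probe sets of Rpl41, Rps18 and Rps29 end in _x_at, and such probes can also match other sequences. These genes are named after their values were seen. The largest of the 7 was Rpl41 probe set 1422623_x_at, with 25545, 22434 and 10758 in EGFP+EYFP+ arrays 1, 2 and 3, against 13336, 13789 and 13059 in the EGFP+EYFP- arrays. Its array 3 value lay below all EGFP+EYFP- values, and its difference was 0.84 (SE 0.15, limma adjusted p = 0.0219) without that array and 0.45 (SE 0.29) with it.

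The other 6 had differences of 0.49 to 0.77 without array 3 and limma adjusted p between 0.0255 and 0.0469. Rps29 probe set 1415833_x_at gave 45122, 46070.1 and 27798 in EGFP+EYFP+ arrays, against 30383, 29367 and 27750.4 in EGFP+EYFP- arrays. Rps18 probe set 1448739_x_at gave 34705, 39976 and 19008 in EGFP+EYFP+ arrays, against 18579, 23857 and 23373 in EGFP+EYFP- arrays. On both of these probe sets the first pair of EGFP+EYFP+ arrays stood clear of the EGFP+EYFP- arrays and the third lay inside their range. The way they were chosen, by passing only without array 3, favours this pattern. On the second Rpl41 probe set among the 6, 1455578_x_at, array 3 (26304) lay below all EGFP+EYFP- arrays. Leaving out any other single array gave no member past the limma threshold and a median between 0.14 and 0.26, the lowest being that without EGFP+EYFP+ array 1 (0.03 over all tested probe sets). Of all tested probe sets 1.91% passed without EGFP+EYFP+ array 1, 2.81% without EGFP+EYFP+ array 2, and 1.64%, 1.56% and 1.48% without EGFP+EYFP- arrays 1, 2 and 3. With array weights, which let limma count noisy arrays for less, the median was 0.32 and 2 members passed, both higher (1.79% of all tested passed in that direction). They were Rpl27 (1448217_a_at, 0.62, limma adjusted p = 0.0324) and Rps24 (1436064_x_at, 0.49, limma adjusted p = 0.0449).

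**Figure D3:**
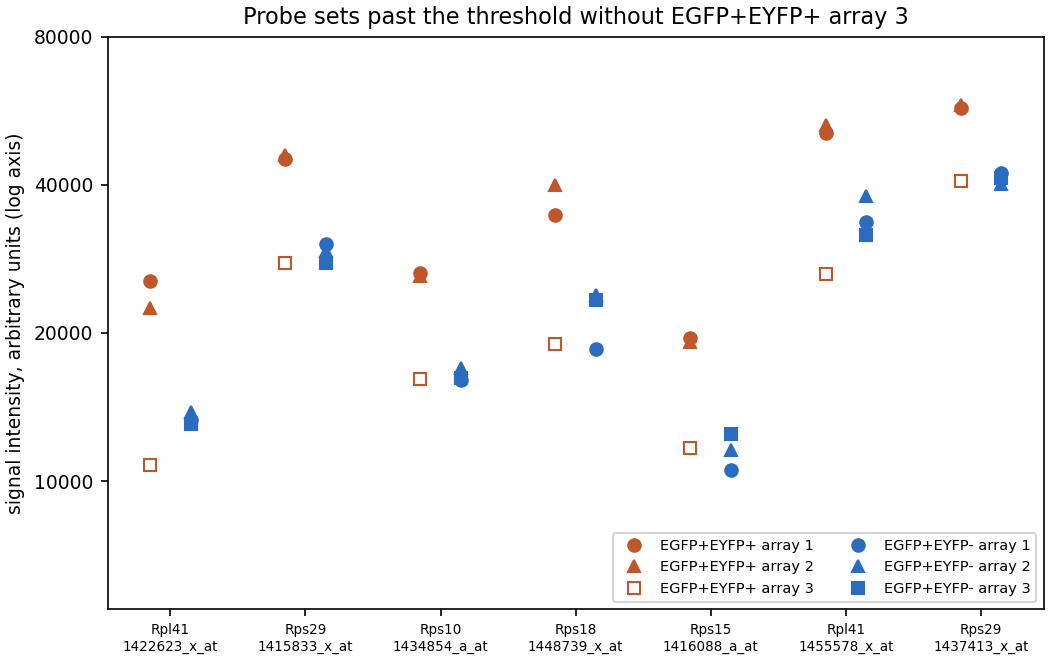
Signal intensity on a log axis (y axis) in each array for the 7 ribosomal protein probe sets that passed the threshold when EGFP+EYFP+ array 3 (open squares) was left out, with EGFP+EYFP+ arrays left of EGFP+EYFP- arrays. Arrays 1 and 2 of the EGFP+EYFP+ group lie above all EGFP+EYFP- arrays for each probe set, and array 3 lies within or below them. Choosing probe sets that passed only without array 3 favours this pattern.

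Of the large subunit, 33 of 40 probe sets were higher in EGFP+EYFP+ cells, with a median difference of 0.20 and a range of -1.21 to 0.79. Rpl11, whose product also binds Mdm2 when ribosome assembly is disturbed, had the largest difference among the 44 bright members. Its signal was 22661, 21429 and 39666 in EGFP+EYFP+ arrays, against 13814, 19544 and 18699.7 in EGFP+EYFP- arrays. The groups did not overlap, array 3 was here the highest of all, and the difference of 0.64 (SE 0.25) had a limma adjusted p of 0.288. Rpl4, whose product lines the tunnel through which the nascent peptide leaves, gave 64057, 69163 and 48264 in EGFP+EYFP+ arrays, against 45075, 50657 and 45513 in EGFP+EYFP- arrays. There array 3 lay within the EGFP+EYFP- range, and the difference was 0.35 (SE 0.15, limma adjusted p = 0.365).

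Rpl27, whose human counterpart is mutated in some cases of Diamond-Blackfan anaemia, gave the smallest adjusted p of the large subunit, and its 3 probe sets did not agree. Probe set 1448217_a_at had 18245, 16849 and 15348 in EGFP+EYFP+ arrays, against 11189.8, 11035.5 and 11695 in EGFP+EYFP- arrays, a difference of 0.57 (SE 0.16, limma adjusted p = 0.106). All 3 EGFP+EYFP+ arrays lay above all EGFP+EYFP- arrays on it. The brightest probe set of Rpl27, 1416099_at, had 32181, 27371 and 14012 in EGFP+EYFP+ arrays, against 22080.2, 29112 and 20324 in EGFP+EYFP- arrays, a difference of -0.03 (SE 0.29). On that one the groups overlapped fully and array 3 was the lowest. The choice of Rpl27 and Rpl4 was made after seeing their values.

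The dim end of the large subunit gave its extremes. Rpl35 probe set 1454833_at had 87.2, 168 and 142 in EGFP+EYFP+ arrays, against 407, 467 and 183 in EGFP+EYFP- arrays, a difference of -1.21 (SE 0.48, limma adjusted p = 0.291). The groups were apart, with the EGFP+EYFP+ arrays lower, while the other 5 probe sets of Rpl35 were all higher on average in EGFP+EYFP+ cells. Rpl27a probe set 1419799_at had 189, 182 and 162 in EGFP+EYFP+ arrays, against 108, 56.9 and 123 in EGFP+EYFP- arrays, a difference of 0.79 (SE 0.42, limma adjusted p = 0.488). It was the largest positive difference of all members, again with groups apart. The brighter Rpl27a probe set had a difference of 0.17.

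Of the small subunit, 39 of 45 tested probe sets were higher in EGFP+EYFP+ cells, with a median of 0.24 and a range of -1.23 to 0.64. Rps24, also known from human Diamond-Blackfan anaemia, gave the smallest adjusted p of all members. Its probe set 1436064_x_at had 31979, 31934 and 30224 in EGFP+EYFP+ arrays, against 21487.5, 21996 and 24048.5 in EGFP+EYFP- arrays. Array 3 lay close to the other 2 here, the groups were apart, and the difference was 0.48 (SE 0.13, limma adjusted p = 0.103). Rps19, the gene most often mutated in that anaemia, gave 25151, 26761 and 17988 in EGFP+EYFP+ arrays, against 15822, 17982 and 17168 in EGFP+EYFP- arrays. Its groups were apart by a narrow margin and the difference was 0.44 (SE 0.18, limma adjusted p = 0.335). Rps19 was chosen after its values were seen.

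Rps20 and Rps9 held the largest negative differences of the small subunit. Rps9 probe set 1426958_at had 136, 107 and 623 in EGFP+EYFP+ arrays, against 329, 691 and 679 in EGFP+EYFP- arrays, a difference of -1.23 (SE 0.63, limma adjusted p = 0.459). Array 3 lay within the EGFP+EYFP- range, and without it the difference was -1.95 (limma adjusted p = 0.0699). Rps20 probe set 1450417_a_at had 468, 305 and 330 in EGFP+EYFP+ arrays, against 472, 1058 and 831 in EGFP+EYFP- arrays, a difference of -1.0 (SE 0.41, limma adjusted p = 0.322). Its groups were apart with a gap of only a few units between 468 and 472. The other dim probe set of Rps20 had a difference of -0.61. Each of these genes also had at least 1 bright probe set that was higher in EGFP+EYFP+ cells.

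The paralogs had a median of -0.07 over 9 tested probe sets, 4 of them higher, with a range of -0.20 to 0.69. Rps4l, an autosomal relative of the X-linked gene Rps4x in the mouse, had 5091, 4912 and 3669 in EGFP+EYFP+ arrays, against 2546, 3101 and 2755 in EGFP+EYFP- arrays. All EGFP+EYFP+ arrays lay above all EGFP+EYFP- arrays, with a difference of 0.69 (SE 0.24, limma adjusted p = 0.214), while Rps4x itself had one of 0.08 (SE 0.16) on its tested probe set, or -0.06 with quantile normalization. Whether the 2 differences differ from each other was not tested.

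Rps27l, a paralog of Rps27 that p53 induces, was lower on all 3 of its probe sets, by 0.17 to 0.20 log2 units. Probe set 1450925_a_at had 11323, 11462 and 11537 in EGFP+EYFP+ arrays, against 13427, 13494 and 12648 in EGFP+EYFP- arrays (-0.20, SE 0.15, limma adjusted p = 0.676). The groups were apart on each of the 3, and the 3 EGFP+EYFP+ values lay closer together than the EGFP+EYFP- values on each. Rps27 had a difference of 0.16 on 1 dim probe set, with 560, 721 and 415 in EGFP+EYFP+ arrays and 449, 467 and 562 in EGFP+EYFP- arrays.

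Rpl22l1, which can take the place of Rpl22 in mouse ribosomes, had 9418, 7488 and 11815 in EGFP+EYFP+ arrays, against 6333, 7427 and 8619.6 in EGFP+EYFP- arrays. The groups overlapped and the difference was 0.35 (SE 0.23, limma adjusted p = 0.608), and the probe sets of Rpl22 had differences of 0.13, -0.27 and 0.17. The 3 probe sets of Rpl7l1, a relative of Rpl7, had differences of -0.07, 0.32 and 0.34, and those of Rpl7 had 0.11 (-0.04 with quantile normalization), 0.27 and 0.32. Rpl39l, a paralog of Rpl39 known from the mouse testis, was near the lower limit, with 209, 53.4 and 208 in EGFP+EYFP+ arrays, against 255, 40.5 and 273 in EGFP+EYFP- arrays. Its difference was -0.12 (SE 0.70, limma adjusted p = 0.974) and that of Rpl39 was 0.30 (SE 0.36), each smaller than its error. Rpl3l, the paralog of Rpl3 found in striated muscle, was too dim to be tested, with 14.4, 11.8 and 20.8 in EGFP+EYFP+ arrays and 83.3, 5.42 and 14.8 in EGFP+EYFP- arrays. Rps19bp1 had 1328, 942.7 and 1330.2 in EGFP+EYFP+ arrays and 1541, 1309.6 and 1331 in EGFP+EYFP- arrays (-0.23, SE 0.29, limma adjusted p = 0.837), with overlapping groups.

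Probe sets of 1 gene disagreed mainly where some of them were dim. Of the 47 genes 23 had 2 or more probe sets, and 22 had 2 or more that were tested, 72 probe sets in all. Within these 22 genes the range of the log2 difference had a median of 0.25, the smallest range being 0.004 and the largest 1.84. That median was 0.41 without the probe sets ending in _x_at and 0.44 without EGFP+EYFP- array 3. In 11 genes all tested probe sets were higher in EGFP+EYFP+ cells, in 1, Rps27l, all were lower, and in 10 both signs occurred. The pooled SD of the difference among probe sets of a gene was 0.38, against 0.48 over 6013 genes of the array with 2 or more tested probe sets. Those genes were not matched to the members by signal level, so this comparison is not like for like. The SD between gene means was 0.22, taken over all 45 member genes with a tested probe set and not only the 22. Probe sets of a gene share the RNA and the arrays and are not replicates of each other.

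The widest spreads were those of Rps9, Rpl35, Rps20, Rps24 and Rpl37a, with ranges of 1.84, 1.49, 1.21, 1.08 and 0.79. On Rps9 the probe set 1433689_s_at had 39219, 36562 and 30063 in EGFP+EYFP+ arrays, against 21896, 23938 and 28008 in EGFP+EYFP- arrays, a difference of 0.52 (SE 0.16, limma adjusted p = 0.153). The groups were apart, with EGFP+EYFP+ higher, where the dim Rps9 probe set 1426958_at was lower. The third, 1434624_x_at, had a difference of 0.61 with 2466, 1962 and 4644 in EGFP+EYFP+ arrays and 1594, 1687.5 and 2309 in EGFP+EYFP- arrays. On Rps24 the differences ran from -0.60 on the dimmest probe set (23.9, 172 and 89.8 in EGFP+EYFP+ arrays and 126, 141 and 128 in EGFP+EYFP- arrays) to 0.48 on the brightest. On Rpl37a they were -0.55, 0.04 (-0.05 with quantile normalization) and 0.24, the negative one on the dimmest.

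Agreement was closest for Rps27l, Rps28 and Rps18 among genes with at least 3 tested probe sets, with ranges of 0.03, 0.13 and 0.17. Where only probe sets among the brightest 1000 were taken, 25 probe sets of 10 genes, the pooled SD was 0.09 and the largest range 0.23, that of Rpl13a. On Rpl35 the range was 1.49 over 6 probe sets and 0.09 over the 3 bright ones, and on Rps20 it was 1.21 over 4 and 0.04 over the 2 bright ones. The mean level also differed among probe sets of a gene, by a median of 4.37 log2 units. The widest was Rps18, from 5.04 to 15.76 over 6 probe sets, of which the 3 dim ones were not tested.

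**Figure D4:**
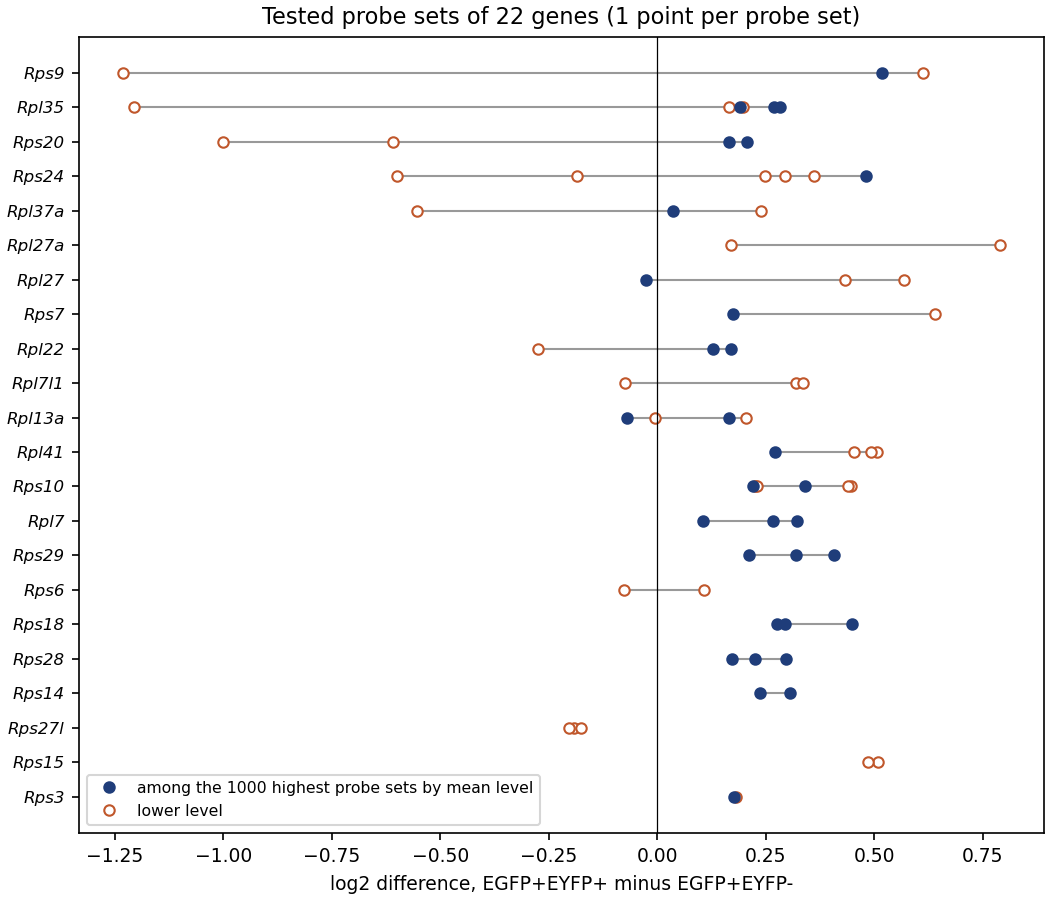
Difference in log2(signal + 25.042) between EGFP+EYFP+ and EGFP+EYFP- cells (x axis) for each tested probe set of the 22 genes with at least 2, ordered by range, with filled points for probe sets among the 1000 of highest mean signal. The filled points of a gene lie close together, while the open points at the far left set the widest ranges, of 1.84 for Rps9, 1.49 for Rpl35 and 1.21 for Rps20.

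The ending of a probe set's name says how its probes were chosen, and the members were split by it. Of those ending in _at, meant for 1 transcript, 32 were members, 27 were tested, the median level was 10.03 and the differences ran from -1.23 to 0.79 with 16 higher. Those ending in _a_at, which detect alternative transcripts of a gene, numbered 27, with a median level of 14.86, a range of -1.0 to 0.64 and 24 higher. The 40 ending in _x_at, whose probes can also match other sequences, had a median level of 14.81, and 34 of 38 tested were higher with a range of -0.55 to 0.64. Ribosomal proteins have many processed pseudogenes of near-identical sequence, so signal from such copies cannot be told apart on those probe sets. Without the _x_at probe sets the median difference was 0.18, with 42 of 57 higher.

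Other genes of the ribosome and of translation were read from the fit with 1 probe set per gene, in which 6.37% of 13464 genes passed. The ribosomal proteins that the symbol rule leaves out had 4 genes on the array with a single symbol, Fau, Rpsa, Rplp2 and Rplp0, and 0 of 4 passed, with a median of 0.31. Fau, the precursor of a small-subunit protein, had 15720.5, 18494 and 11084 in EGFP+EYFP+ arrays, against 8824, 9380.5 and 10373 in EGFP+EYFP- arrays (0.63, SE 0.22, limma adjusted p = 0.136). The EGFP+EYFP+ arrays were all above the EGFP+EYFP- arrays, and array 3 was again the lowest of its group.

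Proteins of the mitochondrial ribosome, a separate machine of bacterial ancestry, had a median of 0.02 over 76 genes, 39 of them higher. Of these only Mrps6 passed, at 6073, 3429 and 4982 in EGFP+EYFP+ arrays, against 14032, 10764 and 11922 in EGFP+EYFP- arrays (-1.37, SE 0.25, limma adjusted p = 0.00844). Of 41 genes of ribosome assembly and rRNA synthesis 0 passed, 26 were higher and the median was 0.08. Fbl, the methyltransferase of rRNA processing, had 10648, 11636 and 9528 in EGFP+EYFP+ arrays, against 5439, 6570.5 and 7918.5 in EGFP+EYFP- arrays (0.68, SE 0.21, limma adjusted p = 0.0925), with groups apart. Translation factors whose mRNAs share the oligopyrimidine start had a median of 0.05 over 19 genes, 11 higher and 0 past the threshold. Genes of growth control had a median of 0.07 over 14 genes, 8 higher and 0 past the threshold, with Mtor itself at -0.54 (SE 0.24, limma adjusted p = 0.276).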

How the data were processed

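Each of 6 samples was measured on 1 array. The authors deposited 1 linear signal intensity per probe set. GCOS is the tool that the submitters' processing notes name, and how it computed and scaled the values is not given in the sources used here. With 2% of values trimmed at either end, the mean was 1500.01 on each array, which shows a common scaling before deposit. The 64 control probe sets were left out of tests.

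Intensities were taken as log2(signal + 25.042), the constant being the 20th percentile of all values, with no further normalization (array medians differed 1.36-fold, limit 1.5). Probe sets with a mean above the 40th percentile were tested with limma 3.58.1 in R 4.3.3 (lmFit, eBayes with trend). Tests were two-sided, p-values were adjusted by Benjamini-Hochberg over all 27022 probe sets tested, and the threshold was 0.05. SE is that of the moderated fit. The procedure was tested on simulated data. The number of arrays limits the precision. No 2 arrays shared values at more than 13 probe sets.

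Symbols came from the platform annotation, and all 47 genes matched RefSeq by Entrez identifier with the same symbol. No build is named in the array table, and positions are given only for RefSeq promoters. Groups came from the sample titles. The members, gene lists and tests were chosen with earlier results of these data known. Named members were the 3 largest differences in each direction, the 5 brightest probe sets, the 5 widest and 3 narrowest genes by range, the paralogs with their parents, Rps19bp1 and up to 4 genes of smallest p per further list. Others are said to be chosen after their values were seen. Alternatives covered normalization, constant, filter, choice of probe sets, variance trend, array weights, replicate block and leaving out each array.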

Additional observations from a re-analysis of the deposited data

How the results depend on the processing

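The median member difference of 0.22 stayed positive under every alternative run, at 0.14 with quantile normalization (all tested probe sets 0.05), 0.28 with median centring (all tested 0.08), 0.32 with array weights and 0.14 to 0.38 when 1 array was left out. Members past the threshold numbered 0 except with array weights (2) and without EGFP+EYFP+ array 3 (7), so leaving out 1 array gave 0 to 7. With array weights 1639 probe sets and 1345 genes passed over the whole array, against 925 and 857 as reported. Leaving out 1 array gave 400 to 1121 probe sets and 466 to 1084 genes, in a fit with fewer samples. Of 828 values of probe sets named by the rule given above, 808 kept their direction and side of the threshold. Another 2 passed newly, those of Rps18 (0.77 without EGFP+EYFP+ array 3) and Rps24 (0.49 with array weights). Further members that passed in these settings, such as those of Rpl41 and Rpl27, were not named by that rule and are not among the 828 values. The remaining 18 of the 828 changed sign, all with differences that passed on neither side. With quantile normalization these were Rpl37a 1460543_x_at (-0.05), Rpl7 1415979_x_at (-0.04) and Rps4x (-0.06), and with array weights Rpl39l (0.10) and Rpl7l1 1426386_at (0.16). When 1 array was left out, values of either sign occurred for Rpl37a 1460543_x_at (-0.07 to 0.15), Rpl37a 1416217_a_at (-0.04 to 0.66), Rpl39l (-0.83 to 0.40), Rpl7l1 1426386_at (-0.31 to 0.16), Rps24 1455195_at (-0.71 to 0.27), Rps27 (-0.02 to 0.36) and Rps4x (-0.03 to 0.21). Why they turned was not tested. The median range between probe sets of a gene, 0.25, was 0.41 without _x_at probe sets and 0.23 to 0.44 when 1 array was left out, and the cause was not tested. Arrays of the same replicate number did not deviate together (r = 0.092, 0.025 and -0.065 across probe sets). With 3 arrays per group this cannot settle whether the numbers pair the samples, which is not stated. With the replicate number as a block 897 probe sets, 1014 genes and 0 members passed and the median stayed at 0.22. Members near the top of the signal range may have compressed differences, which was not tested.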
